A study of Mus musculus with 12 samples.

Results

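The 10 genes described here are targets or partners of ATF4, the transcription factor that cells use when amino acids run short. They are Atf4 itself, the stress and feedback genes Ddit3, Trib3, Chac1 and Sesn2, and the amino acid and one-carbon enzymes Asns, Phgdh, Psat1, Shmt2 and Mthfd2. They were chosen by symbol, and all 10 were found among the 14851 genes of each deposited table. RNA-sequencing compared 562 cells with and without genes of autophagy, 3 libraries in each of 4 groups. The 562 cells are a spontaneously immortalized line grown out of skin vascular tumors of tamoxifen-treated Tsc1 f/f;Scl-Cre mice, so that control and KO cells alike lack Tsc1, the brake on mTORC1, although the labels give the controls the genotype wildtype. The Cre was driven by the endothelial Scl enhancer, 562 is a single line, and the labels give the strain C57BL/6 and the tissue lymphatic endothelial cells.

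Control cells carried a LentiCRISPR v2 vector with a guide against EGFP, a sequence that mouse cells lack. Fip200 KO cells carried 1 of 2 guides against Fip200 (listed as Rb1cc1), a scaffold of the ULK1 complex that starts autophagy. Atg5 KO and Atg7 KO cells carried 1 guide each against genes of the LC3 conjugation machinery. All cells had passed puromycin selection and grew without further treatment in medium with serum and added non-essential amino acids. Age does not apply to a cell line. Which guide or clone a Fip200 KO library came from is not stated. The study calls the 3 mRNA samples of a group independent without saying what separated them, so the p-values measure the spread between these samples, part of which may be technical.

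When uncharged tRNAs pile up, the kinase GCN2 phosphorylates the translation factor eIF2alpha, general protein synthesis slows, and ATF4 mRNA is translated better. ATF4 then pairs with C/EBP factors and switches on amino acid transporters, biosynthetic enzymes and tRNA synthetases. In cells with hyperactive mTORC1, ATF4 output is also kept up by mTORC1 itself. Autophagy returns amino acids to the cytosol by breaking down protein in lysosomes, and the comparison of KO with control cells bears on whether loss of that supply goes with higher mRNA of the response genes.

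ATF4 and C/EBP factors read a composite element with the core TGATGNAA. It was looked for on both strands in the 300 bases around each RefSeq start site, 250 before and 50 after, on assembly GRCm38.p6. Of the 10 genes, 3 held it (30%), namely Asns, Chac1 and Trib3, against 4.51% of 27025 genes with such a window. The wider pathway lists described further on had a like share, 10 of 36 genes (27.8%). In the other genes these letters were not in this window, which says nothing about binding. For Mthfd2, on the minus strand, the window searched (chr6:83317555-83317854) lay inside the annotated gene, whose 5′ end is at base 83326011. The matched stretches are shown because these 3 genes are among the best known users of the element, with the match in capitals and each written 5′ to 3′ on the strand of its gene. The Asns stretch is chr6:7693210-7693268 on the minus strand and ends at the base before the start site. The Chac1 stretch is chr2:119351013-119351092 on the plus strand. The Trib3 stretch is chr2:152344028-152344057 on the minus strand, just inside the transcript.
Asns: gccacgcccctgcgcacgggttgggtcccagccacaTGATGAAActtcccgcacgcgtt
Chac1: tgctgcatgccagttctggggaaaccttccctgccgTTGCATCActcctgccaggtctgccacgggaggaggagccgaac
Trib3: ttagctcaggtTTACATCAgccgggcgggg
In Asns the match lay 23 to 16 bases before the start site and reads along the gene, while in Chac1 (193 to 186 bases before it) and Trib3 (bases 15 to 22 of the transcript) the capitals are the reverse complement.

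Values are RPKM, reads scaled to gene length and to the read total of the library, so levels can be compared between genes. The libraries held between 17264989 and 23627944 reads on listed genes. A gene was called when its adjusted p did not exceed 0.1 and its log2 fold change was 1 or more in size, by limma on log2(RPKM + 0.5) over all tested genes. Of the targeted genes, Rb1cc1 stood at 6.43, 8.27 and 7.73 RPKM in control and 5.18, 6.84 and 2.06 RPKM in Fip200 KO cells, which overlap. Atg5 mRNA was 14.2, 11.1 and 10.6 RPKM in control and 8.53, 15.5 and 12.6 RPKM in Atg5 KO cells, so that it did not check those labels. A small deletion left by a guide need not lower mRNA. The study checked the Fip200, Atg5 and Atg7 knockouts of its cells by western blot. Atg7 was called lower in Atg7 KO cells, with 18.4, 25.0 and 19.8 RPKM against 5.40, 2.64 and 8.34 RPKM (log2 fold change -1.97, adjusted p = 0.0216). Low Atg7 mRNA was not particular to those libraries, since it also lay below all controls in Atg5 KO cells at 9.99, 11.9 and 9.94 RPKM (-0.95, adjusted p = 0.0083), and stood at 38.3, 12.4 and 8.23 RPKM in Fip200 KO cells. The endothelial markers Pecam1 (at least 264.6 RPKM) and Cdh5 (at least 116 RPKM) were present in every library, whereas the lymphatic factor Prox1 lay between 0.0366 and 5.79 RPKM. The labelled lymphatic identity thus rested on Lyve1, Pdpn and Flt4. Fip200 KO replicate 3 stood apart from its group, with the surface protein Thy1 at 0.21 RPKM against 288 and 229 RPKM in the other Fip200 KO libraries.

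Atf4 was the most abundant of the 10 genes and the steadiest, with a mean of 243 RPKM over the 12 libraries and a highest value 1.78 times the lowest. It stood at 256, 294 and 229 RPKM in control replicates 1, 2 and 3 and at 257, 249 and 165 RPKM in Fip200 KO cells. It read 264, 284 and 216 RPKM in Atg5 KO and 287, 178 and 242 RPKM in Atg7 KO cells. Every KO group overlapped the controls. The log2 fold change in Fip200 KO cells was -0.23 (95% interval -0.80 to 0.33), that in Atg5 KO cells -0.03 (-0.38 to 0.32) and that in Atg7 KO cells -0.16 (-0.65 to 0.34). When 1 library was left out, the Fip200 KO value ran from -0.35 to -0.03. ATF4 is set mainly by translation, which RNA-sequencing does not see.

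No gene of the 10 was called higher in any KO. The background was small for such calls, since 0.347% of 11803 tested genes were called higher without Fip200, 4.31% of 11833 without Atg5 and 3.29% of 11784 without Atg7. Called lower were 0 of 10 without Fip200 (background 1.64%), 2 of 10 without Atg5 (background 6.94%) and 0 of 10 without Atg7 (background 6.81%). At an unadjusted p below 0.05 limma counted 1, 3 and 2 of the 10 in the same order of KO groups (Fip200, Atg5, Atg7), beside 16.1%, 43.8% and 33.7% of all tested genes. A voom fit of the recovered reads called 0, 1 and 0 of the 10, beside 1.58%, 13.9% and 12.1% of all tested genes. The median log2 fold change of the 10 genes was -0.30, -0.21 and -0.32 in that order, beside 0.02, 0.06 and -0.01 over all tested genes. Above 0 lay 3, 3 and 2 of the 10. These medians moved with single libraries. In Fip200 KO cells the median ran from -0.67 without Fip200 KO replicate 1 to 0.08 without Fip200 KO replicate 3, and was -0.05 without control replicate 2. It ran from -0.47 without control replicate 3 to 0.04 without control replicate 2 in Atg5 KO cells. For Atg7 KO cells it was -0.68 without Atg7 KO replicate 1, -0.0023 without Atg7 KO replicate 2 and -0.09 without control replicate 2. The same 3 control libraries served all 3 comparisons, so these are not independent of each other.

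**Figure D1:**
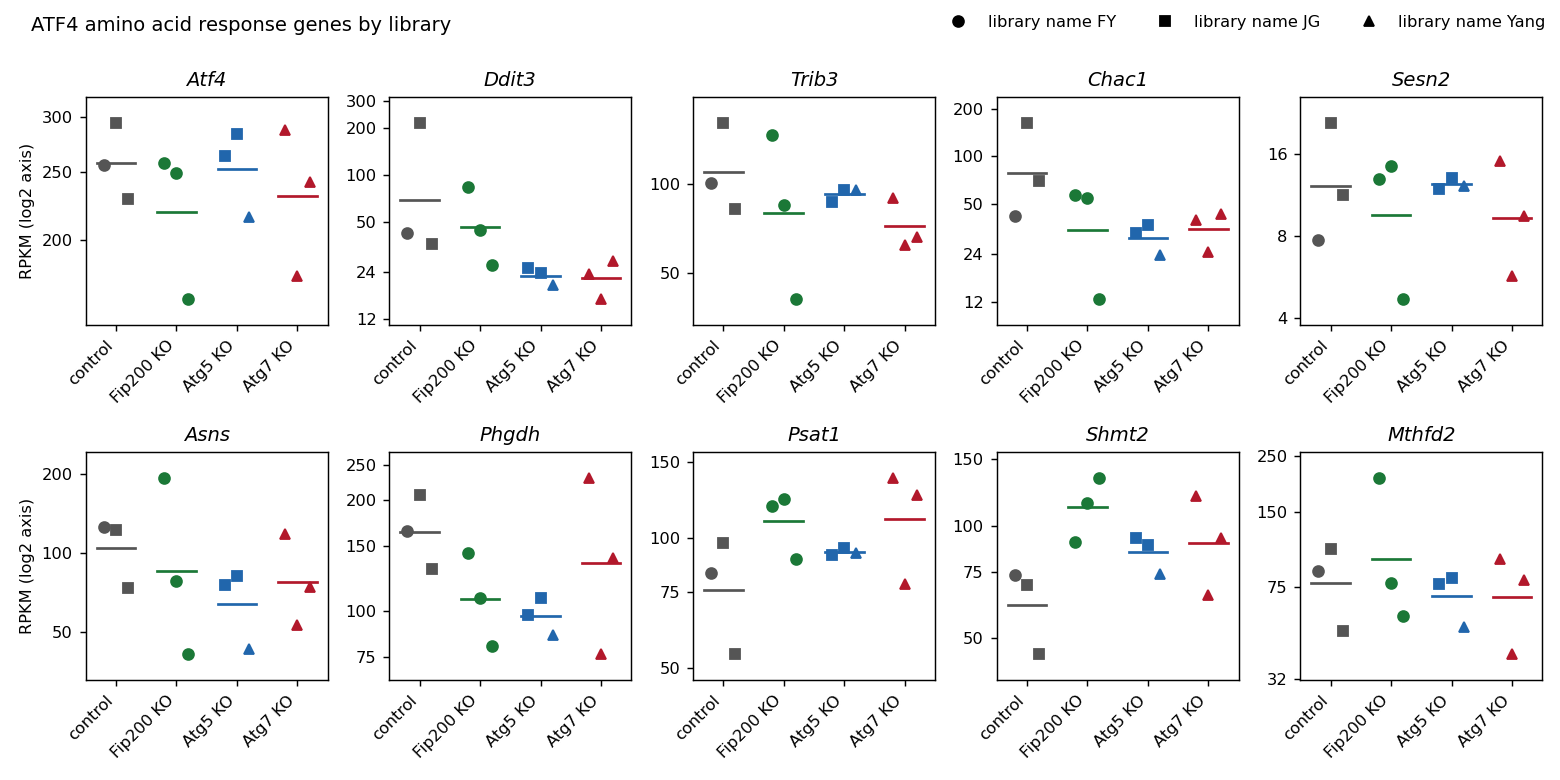
RPKM of the 10 genes on a log2 axis in each of the 12 libraries, with a bar at the geometric mean of each group (n = 3) and the point's shape giving the prefix of the library name. Control replicate 2, the middle control point, reached 216 RPKM for Ddit3 and 163 RPKM for Chac1, while Atf4 stayed between 165 and 294 RPKM in all 12 libraries.

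**Figure D2:**
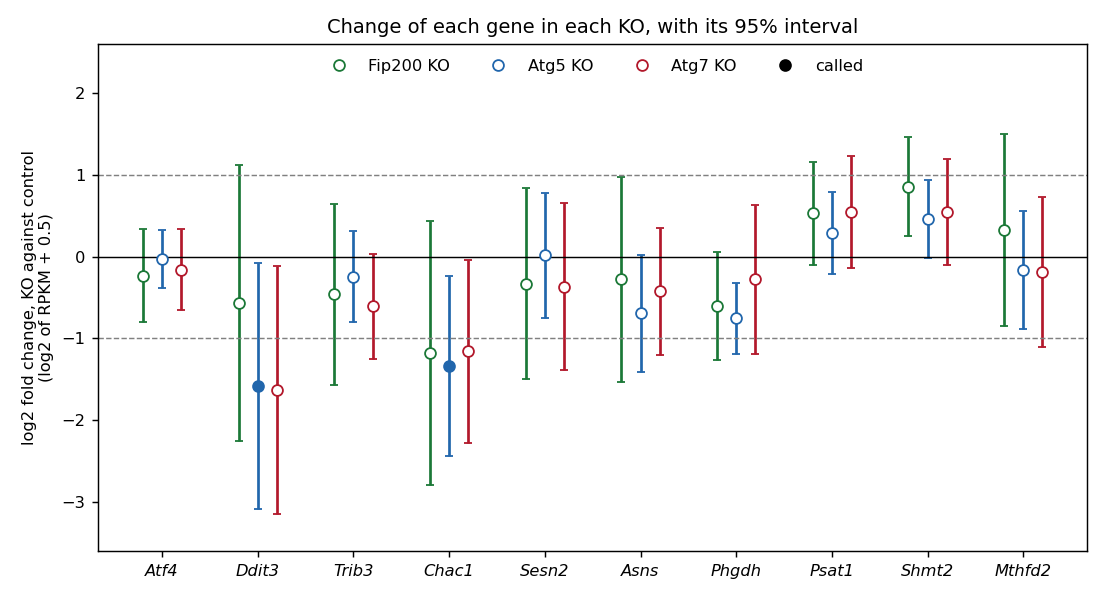
Log2 fold change of each gene in each KO against control on the scale of log2(RPKM + 0.5), with its 95% interval from limma (3 against 3 libraries); filled points are called and dashed lines mark a change of 1 in size. Ddit3 and Chac1 in Atg5 KO cells are the filled points, at -1.59 and -1.34, and no point lies above 1.

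Among the stress and feedback genes, Ddit3 and Chac1 varied most. Ddit3 encodes CHOP, a factor that ATF4 induces under lasting stress and that favours cell death. It measured 42.7, 216 and 36.0 RPKM in control replicates 1, 2 and 3, a range of 6.00 times within a single group. It was 25.3, 23.6 and 19.7 RPKM in Atg5 KO and 23.4, 16.2 and 28.2 RPKM in Atg7 KO cells. All 6 of those libraries lay below every control. In Fip200 KO cells the 3 values were 84.3, 44.9 and 26.6 RPKM and overlapped the controls.

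Ddit3 was called lower in Atg5 KO cells by a narrow margin (log2 fold change -1.59, SE 0.63, adjusted p = 0.0995). In Atg7 KO cells the value was -1.63 (SE 0.64, adjusted p = 0.125), and in Fip200 KO cells -0.57 (SE 0.72, adjusted p = 0.716). The exact two-sided permutation p of single genes was 0.1 for Ddit3 in Atg5 KO cells and again in Atg7 KO cells, the smallest that 3 against 3 libraries can give. Without control replicate 2 the change in Atg5 KO cells was -0.77 (adjusted p = 0.0233), short of the fold limit. Leaving out Atg5 KO replicate 1, 2 or 3 gave an adjusted p of 0.177, 0.181 or 0.203. Over all alternatives the adjusted p ran from 0.0233 to 0.208. In Atg7 KO cells, too, the size rested on control replicate 2, without which Ddit3 stood at -0.82. Between the libraries whose names begin with JG, 2 Atg5 KO against 2 control, the difference was -1.83 without overlap.

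Chac1, an enzyme that cleaves glutathione and is a sensitive ATF4 target, came next in spread. Its values were 41.8, 163 and 70.0 RPKM in control and 32.5, 36.9 and 23.8 RPKM in Atg5 KO cells, with every Atg5 KO library below every control. The values were 39.4, 24.8 and 42.9 RPKM in Atg7 KO and 57.3, 54.7 and 12.6 RPKM in Fip200 KO cells, and both groups overlapped the controls. Chac1 was called lower in Atg5 KO cells (-1.34, SE 0.46, adjusted p = 0.068). It was not called in Atg7 KO (-1.16, SE 0.47, adjusted p = 0.136) or Fip200 KO cells (-1.18, SE 0.69, adjusted p = 0.433). Here too control replicate 2 carried much of the size, since without it the change in Atg5 KO cells was -0.81 (adjusted p = 0.0866). Without control replicate 3 the adjusted p was 0.134, and without Atg5 KO replicate 1, 2 or 3 it was 0.141, 0.111 or 0.166. Over all alternatives it ran from 0.0216 to 0.222, and the JG libraries alone gave a difference of -1.61. Without control replicate 1, Chac1 was called lower in Atg7 KO cells as well (-1.61, adjusted p = 0.0621), but without control replicate 2 it stood there at -0.63. The Fip200 KO value shrank to -0.48 without Fip200 KO replicate 3 and to -0.29 with the prefix of the library name in the model.

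Trib3, a pseudokinase that holds ATF4 and CHOP activity back, was not called in any KO. It ranged from 82.2 to 160.2 RPKM in control, 40.9 to 145 RPKM in Fip200 KO, 87.0 to 95.5 RPKM in Atg5 KO and 62.2 to 89.8 RPKM in Atg7 KO cells. Its log2 fold change was -0.46, -0.25 and -0.61 in that order of the KO groups, the last becoming -0.34 without control replicate 2. Sesn2, which binds leucine and restrains mTORC1, was the least abundant of the 10 genes with a mean of 11.6 RPKM. Its log2 fold changes were -0.33, 0.02 and -0.37, with wide overlap of all groups. For Sesn2 in Atg5 KO cells the 95% interval ran from -0.75 to 0.78.

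The serine pathway genes did not move as a block. Phgdh, the first enzyme of serine synthesis from glycolysis, read 165, 206 and 130.2 RPKM in control and 97.9, 108 and 86.2 RPKM in Atg5 KO cells. All 3 Atg5 KO libraries were below all 3 controls, and the log2 fold change of -0.75 passed the p limit (SE 0.18, adjusted p = 0.025) but not the fold limit. Over all alternatives that adjusted p ran from 0.0203 to 0.444. It missed the limit in the fit of all 12 libraries and with the prefix of the library name in the model. In Fip200 KO cells Phgdh stood at 144, 108 and 80.3 RPKM (-0.61, SE 0.28, adjusted p = 0.341). In Atg7 KO cells it spread from 76.8 to 230.0 RPKM, that is over more than the whole range of the controls (-0.28, SE 0.39, adjusted p = 0.640).

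Psat1, which carries out the next step of serine synthesis, lay higher on average in each KO. It stood at 82.9, 97.3 and 54.0 RPKM in control, 119, 123 and 89.6 RPKM in Fip200 KO, 91.4, 94.8 and 92.5 RPKM in Atg5 KO and 138, 78.5 and 126 RPKM in Atg7 KO cells. Every KO group overlapped the controls, and log2 fold changes of 0.53, 0.29 and 0.55 did not pass the test (adjusted p = 0.379, 0.324 and 0.229). Without control replicate 3, the lowest control, they shrank to 0.28, 0.0482 and 0.30. Psph, the last enzyme of the pathway and no member of the 10, had values of -0.59, -0.91 and -0.76.

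Shmt2, the mitochondrial enzyme that splits serine into glycine and a one-carbon unit, was the gene with the highest log2 fold change in Fip200 KO and Atg5 KO cells. It measured 74.0, 69.2 and 45.6 RPKM in control and 90.6, 115 and 134 RPKM in Fip200 KO cells, without overlap. The Atg5 KO libraries, at 92.8, 88.7 and 74.2 RPKM, also lay above all controls, the lowest of them narrowly. The Atg7 KO libraries, at 120, 65.3 and 92.4 RPKM, overlapped. The change in Fip200 KO cells was 0.86 (SE 0.26, adjusted p = 0.186), against 0.46 without Atg5 (SE 0.20, adjusted p = 0.124) and 0.54 without Atg7 (SE 0.28, adjusted p = 0.211), and none was called. When 1 library was left out, these values ran from 0.64 to 1.01, from 0.24 to 0.59 and from 0.33 to 0.77. Over all alternatives the adjusted p in Fip200 KO cells ran from 0.0806 to 0.764. Mthfd2, the mitochondrial dehydrogenase that takes the one-carbon unit further, had values of 0.33, -0.17 and -0.18, all with overlap.

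Asns, which makes asparagine and is the textbook reporter of the amino acid response, was not called in any KO. It stood at 126, 123 and 73.7 RPKM in control and 194, 78.7 and 41.5 RPKM in Fip200 KO cells. The Atg5 KO libraries read 75.4, 81.8 and 43.2 RPKM and the Atg7 KO libraries 118, 53.3 and 74.5 RPKM. The Fip200 KO group thus held both the highest and the lowest Asns value of all 12 libraries. Log2 fold changes were -0.28 (SE 0.53, adjusted p = 0.818), -0.69 (SE 0.30, adjusted p = 0.123) and -0.42 (SE 0.33, adjusted p = 0.404) in the order Fip200, Atg5, Atg7. Leaving out 1 library moved the Atg5 KO value between -0.94 and -0.41, the latter without Atg5 KO replicate 3. It moved the Atg7 KO value between -0.72 and -0.15.

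Groups without overlap were counted as a plainer measure. Of the 10 genes, 1 lay above all controls in Fip200 KO cells (Shmt2; background 11.7%) and 0 below (background 12.4%). Without Atg5 1 lay above (Shmt2; background 28.4%) and 3 below (Ddit3, Chac1 and Phgdh; background 22.0%). In Atg7 KO cells 0 lay above (background 19.2%) and 1 below (Ddit3; background 20.4%). Apart from the 3 genes below all controls in Atg5 KO cells (30%), each of these shares was smaller than that of all tested genes.

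Libraries of the same group differed in most of the 10 genes at once. Control replicate 2 was the highest control for 8 of the 10 and control replicate 3 the lowest for 8. Fip200 KO replicate 1 was highest of its group for 7 and Fip200 KO replicate 3 lowest for 9. Atg7 KO replicate 2 was the lowest Atg7 KO library for all 10 genes, while Atg7 KO replicate 1 was the highest for 8. Of the Atg5 KO libraries, replicate 2 was highest for 8 and replicate 3 lowest for 7. The median log2 deviation of the 10 genes from their 12-library means reached 0.66 in control replicate 2 and -0.65 in Atg7 KO replicate 2, with -0.58 in Fip200 KO replicate 3. Shmt2 ran the other way in control replicate 2 and in Fip200 KO replicate 3, where it had its highest value of all. Leaving out Fip200 KO replicate 3 turned Trib3, Sesn2 and Asns from below 0 to 0.02, 0.15 and 0.24 in Fip200 KO cells, and without Fip200 KO replicate 1 Mthfd2 turned from 0.33 to -0.21. Without Atg7 KO replicate 2, Atf4, Phgdh and Mthfd2 stood at 0.03, 0.12 and 0.19 in Atg7 KO cells.

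**Figure D3:**
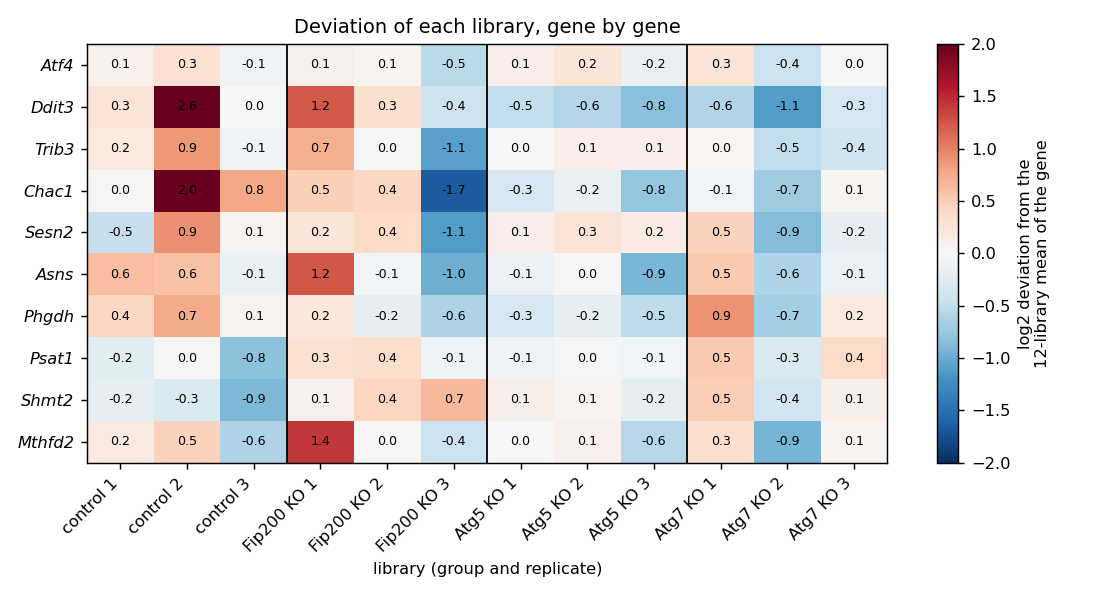
Log2 deviation of each of the 10 genes (rows) in each library (columns, by group and replicate) from the gene's mean over all 12 libraries, printed in each cell and colored red above and blue below. The columns of control 2 and Fip200 KO 1 are mostly red and those of Fip200 KO 3 and Atg7 KO 2 mostly blue.

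Names of the libraries carry 3 prefixes, of which it is not said what they mark. Control replicate 1 and all Fip200 KO libraries begin with FY, control replicates 2 and 3 and Atg5 KO replicates 1 and 2 with JG, and Atg5 KO replicate 3 and all Atg7 KO libraries with Yang. Among FY libraries, 3 Fip200 KO against 1 control, 5 of the 10 genes lay above 0 with a median log2 difference of -0.05. Among JG libraries, 2 Atg5 KO against 2 control, 4 of the 10 lay above 0 with a median of -0.28. No control has the prefix Yang, so no within-prefix value exists for Atg7 KO cells. A model of all 12 libraries with the prefix as a term separates Atg7 KO from it only through Atg5 KO replicate 3. In that model 0 of the 10 genes were called in any KO, the median of the 10 was 0.08 in Atg7 KO cells, and Asns and Mthfd2 there turned to 0.57 and 0.51.

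Single genes from the marker lists of other cell types differed between the groups, and their part in the results was not tested. The mesenchymal list (5 of 5 in the tables) summed to between 5.58 and 18.6 RPKM in control, 16.0 and 289 RPKM in Fip200 KO, 111 and 212 RPKM in Atg5 KO and 73.4 and 360.5 RPKM in Atg7 KO cells. Outside Fip200 KO replicate 3 most of that was Thy1 in the KO libraries, called higher without Atg5 (4.02, adjusted p = 0.00854) or Atg7 (4.32, adjusted p = 0.0207), while Col1a1 stayed at or under 0.476 RPKM in all libraries. Acta2 was also called higher without Atg5 (2.82-fold, adjusted p = 0.0499), and Col1a2, at no more than 1.54 RPKM, without Atg7 (1.64, adjusted p = 0.0134). The Acta2 call was lost without control replicate 1 or 2 or Atg5 KO replicate 1 or 2 (adjusted p = 0.105, 0.109, 0.143 and 0.111). The leukocyte list (3 of 4 in the tables) summed to between 52.8 and 111 RPKM in control, 19.2 and 265 RPKM in Fip200 KO, 14.8 and 16.6 RPKM in Atg5 KO and 13.7 and 27.2 RPKM in Atg7 KO cells. It rested on Cd68 and on Lyz2. Lyz2 read 19.3, 2.88 and 26.4 RPKM in control and between 0.139 and 6.74 RPKM in the KO libraries. Cd68 was called lower without Atg5 (-2.26, adjusted p = 0.0064) or Atg7 (-1.70, adjusted p = 0.0798). The latter call was lost without control replicate 1, 2 or 3 or Atg7 KO replicate 1 (adjusted p = 0.176, 0.172, 0.131 and 0.139). The defining leukocyte gene Ptprc was at most 0.129 RPKM and at 0 in all Fip200 KO libraries. The pan-endothelial list (6 of 6) summed to between 542 and 1130 RPKM in control, 1067 and 1163 RPKM in Fip200 KO, 1228 and 1481 RPKM in Atg5 KO and 942 and 1680 RPKM in Atg7 KO cells, with the lowest sum in control replicate 2. Of that list Cdh5 (1.28, adjusted p = 0.0376) and Kdr (1.35, adjusted p = 0.0878) were called higher in Atg5 KO cells, and without control replicate 2 they stood at 0.85 and 0.81, both short of the fold limit. The Kdr call was also lost without control replicate 3 (adjusted p = 0.168) or Atg5 KO replicate 1 or 2 (adjusted p = 0.210 and 0.199), and the Cdh5 call without Atg5 KO replicate 1 (adjusted p = 0.109). The epithelial list (2 of 4 in the tables) ranged from 0.392 to 10.6 RPKM over the 12 libraries, with no call in any KO. The lymphatic list (4 of 5) summed to between 262 and 358 RPKM in control, 219 and 821 RPKM in Fip200 KO, 388 and 497 RPKM in Atg5 KO and 379 and 488 RPKM in Atg7 KO cells, so that the last 2 groups lay above all controls. Lyve1 was called higher in both (1.25, adjusted p = 0.048, and 1.11, adjusted p = 0.0947), and either call was lost without control replicate 2 (adjusted p = 0.107 and 0.209) or 3 (adjusted p = 0.103 and 0.233) and without some of the KO libraries. In RNA from whole cultures, fewer cells of a type and less RNA per cell cannot be told apart.

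The wider pathway was read from 5 lists of 44 genes, of which 42 could be tested. Fgf21 and Cbs were left out as too low, at no more than 0.268 RPKM. Called lower were 1, 11 and 6 of 42 in the order Fip200, Atg5, Atg7, and called higher 0, 0 and 1, which is to be read beside the background shares for lower and higher calls given above. The median log2 fold change of the lists was -0.25, -0.49 and -0.39 in that order. On leaving out 1 library it ran from -0.43 to -0.20, from -0.63 to -0.31 and from -0.48 to -0.11. With the prefix in the model it was -0.30, -0.34 and 0.04. Leaving out control replicate 2 lowered the counts of calls to 0, 6 and 4, leaving out control replicate 1 or 3 or Fip200 KO replicate 2 lowered that in Fip200 KO cells to 0, and leaving out Atg5 KO replicate 3 lowered that in Atg5 KO cells to 7. Once the prefix entered the model, none of the 42 was called in any KO. The folds of the genes named below stayed about as large in Atg5 KO cells, with Gpt2 at -2.16 (adjusted p = 0.1004), Nupr1 at -2.01 (adjusted p = 0.124), Ddit4 at -2.32 (adjusted p = 0.144) and Slc7a11 at -1.30 (adjusted p = 0.450). Gdf15 went there from -1.89 to -1.38 (adjusted p = 0.141). Some shrank without Atg7, Gdf15 from -2.34 to -0.62 (adjusted p = 0.819) and Nupr1 to -0.82 (adjusted p = 0.827), while Ddit4 went from -1.97 to -2.85 (adjusted p = 0.481). Within the prefix, with Fgf21 and Cbs counted in, 16 of 44 lay above 0 between JG libraries and 11 of 44 between FY libraries.

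Sensors and regulators of eIF2alpha held no call in any KO, 9 of 9 tested. Eif2ak4, which encodes GCN2, was between 7.89 and 12.5 RPKM in all 12 libraries, with log2 fold changes of -0.12, -0.27 and -0.43. Eif2ak2, which encodes the double-stranded RNA sensor PKR, had the highest value of that list in Atg5 KO cells (0.67, adjusted p = 0.133). The serine and one-carbon list likewise held no call, 4 of 4 tested. Its Mthfd1l, a mitochondrial synthetase of formate, had values of 0.99, 0.35 and 0.98 (adjusted p = 0.220, 0.155 and 0.0233). Mthfd1, its cytosolic counterpart, had values of 0.49, 0.74 and 0.95 (adjusted p = 0.653, 0.012 and 0.033). Both genes lay above all controls in Atg7 KO cells and passed the p limit there, short of the fold limit. Mthfd1l crossed that limit and was called higher with a pseudocount of 0.1 (1.00, adjusted p = 0.0247), with voom (1.01, adjusted p = 0.0264), and without control replicate 1 (1.13), control replicate 3 (1.01) or Atg7 KO replicate 2 (1.04). Mthfd1 did so without Atg7 KO replicate 2 (1.08, adjusted p = 0.0242) or 3 (1.05, adjusted p = 0.0644).

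Transporters gave 3 calls, all lower, in Atg5 KO cells and 1 in Atg7 KO cells out of 9. Of all tested genes, 6.94% and 6.81% were called lower in these KO groups. Slc7a11, the cystine importer, read 39.5, 51.1 and 47.6 RPKM in control and 19.0, 20.5 and 17.6 RPKM in Atg5 KO cells (-1.25, adjusted p = 0.00372). It was lower in Atg7 KO cells as well, with 30.5, 11.9 and 15.2 RPKM (-1.35, adjusted p = 0.0403), a call lost without control replicate 2 (adjusted p = 0.122), control replicate 3 (adjusted p = 0.137) or Atg7 KO replicate 3 (adjusted p = 0.105). In Fip200 KO cells it stood at 59.6, 8.42 and 4.69 RPKM (-1.72, adjusted p = 0.349), and it was called lower there without Fip200 KO replicate 1 (-2.77, adjusted p = 0.0484). Both Slc7a11 calls were lost in the fit of all 12 libraries (adjusted p = 0.253 without Atg5 and 0.215 without Atg7). Slc7a5, the leucine carrier, and Slc7a3, a carrier of arginine and lysine, fell by 1.28 and 1.12 on the log2 scale in Atg5 KO cells (adjusted p = 0.0181 and 0.0401). Without control replicate 2 they stood at -0.98 and -0.79, short of the fold limit, and Slc7a3 also lost its call without Atg5 KO replicate 1 or 3 (adjusted p = 0.101 and 0.104).

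Among other amino acid enzymes, 7 of 8 tested, Gpt2 was the only call. This mitochondrial alanine aminotransferase stood at 35.7, 66.6 and 24.8 RPKM in control, 24.4, 16.4 and 5.74 RPKM in Fip200 KO, 8.15, 9.33 and 5.35 RPKM in Atg5 KO and 11.8, 7.85 and 9.99 RPKM in Atg7 KO cells. Every KO library lay below every control. Calls were made in Atg5 KO (-2.32, adjusted p = 0.00796) and Atg7 KO cells (-1.94, adjusted p = 0.0206), not in Fip200 KO cells (-1.52, adjusted p = 0.257) unless all 12 libraries were fitted together (adjusted p = 0.0955). When 1 library was left out, the Fip200 KO value ran from -1.94 to -0.95. Bcat1, which starts the breakdown of branched-chain amino acids, had values of 0.73, -0.25 and 0.43 and was not called.

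Partner factors and stress targets held most calls, out of 13 tested, namely 1 lower in Fip200 KO cells, 7 lower without Atg5, and 4 lower and 1 higher without Atg7. Of all tested genes, 1.64%, 6.94% and 6.81% were called lower in the order Fip200, Atg5, Atg7, and 3.29% higher without Atg7. Gdf15, a secreted stress hormone of the TGF-beta family, was called lower in all 3 KO groups, at -2.22, -1.89 and -2.34 (adjusted p = 0.080, 0.049 and 0.0144). It is a low gene, with 4.03, 8.37 and 2.97 RPKM in control and no more than 1.99 RPKM in any KO library. The call in Fip200 KO cells was lost without control replicate 1, 2 or 3 (adjusted p = 0.172, 0.293 and 0.308) and without Fip200 KO replicate 1 or 2 (adjusted p = 0.104 and 0.181), and that in Atg5 KO cells without control replicate 2 (adjusted p = 0.124). The Atg7 KO call held without any 1 library but not with the prefix as a term, as given above. Nupr1, a small stress-induced chromatin protein, stood at 242, 524 and 222 RPKM in control and between 39.8 and 189.7 RPKM in all 9 KO libraries. The lower value was called without Atg5 (-2.13, adjusted p = 0.0108) or Atg7 (-1.50, adjusted p = 0.0296) but not in Fip200 KO cells (-1.74, adjusted p = 0.220), where it was called only in the fit of all 12 libraries (adjusted p = 0.0747).

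Ddit4, also known as REDD1, an inhibitor of mTORC1 that works through the Tsc complex, fell by 1.83 in Atg5 KO (adjusted p = 0.0145) and by 1.97 in Atg7 KO cells (adjusted p = 0.0193) on the log2 scale. In Fip200 KO cells its value was -1.50 (adjusted p = 0.367), running from -2.06 without Fip200 KO replicate 2 to -0.63 without Fip200 KO replicate 3. Ero1l, the oxidase that forms disulfides in the ER, fell by 1.97 in Atg5 KO cells (adjusted p = 0.0258), a call lost in the fit of all 12 libraries (adjusted p = 0.196) and with the prefix term (adjusted p = 0.334). In the other KO groups its libraries spread widely, from 65.3 to 1129 RPKM in Fip200 KO cells alone. Atf5, a sister factor of ATF4 tied to mitochondrial stress, was the single higher call. It stood at 36.4, 29.2 and 37.6 RPKM in control and 97.4, 49.7 and 67.9 RPKM in Atg7 KO cells (1.00, adjusted p = 0.0448), right at the fold limit. That call was lost without control replicate 2 or 3 (adjusted p = 0.132 and 0.123) and without Atg7 KO replicate 1 or 3 (adjusted p = 0.109 and 0.101). In Atg5 KO cells Atf5 was at 58.1, 63.9 and 48.8 RPKM (0.72, adjusted p = 0.0158) and in Fip200 KO cells at 15.6, 34.6 and 18.4 RPKM (-0.66, adjusted p = 0.351).

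**Figure D4:**
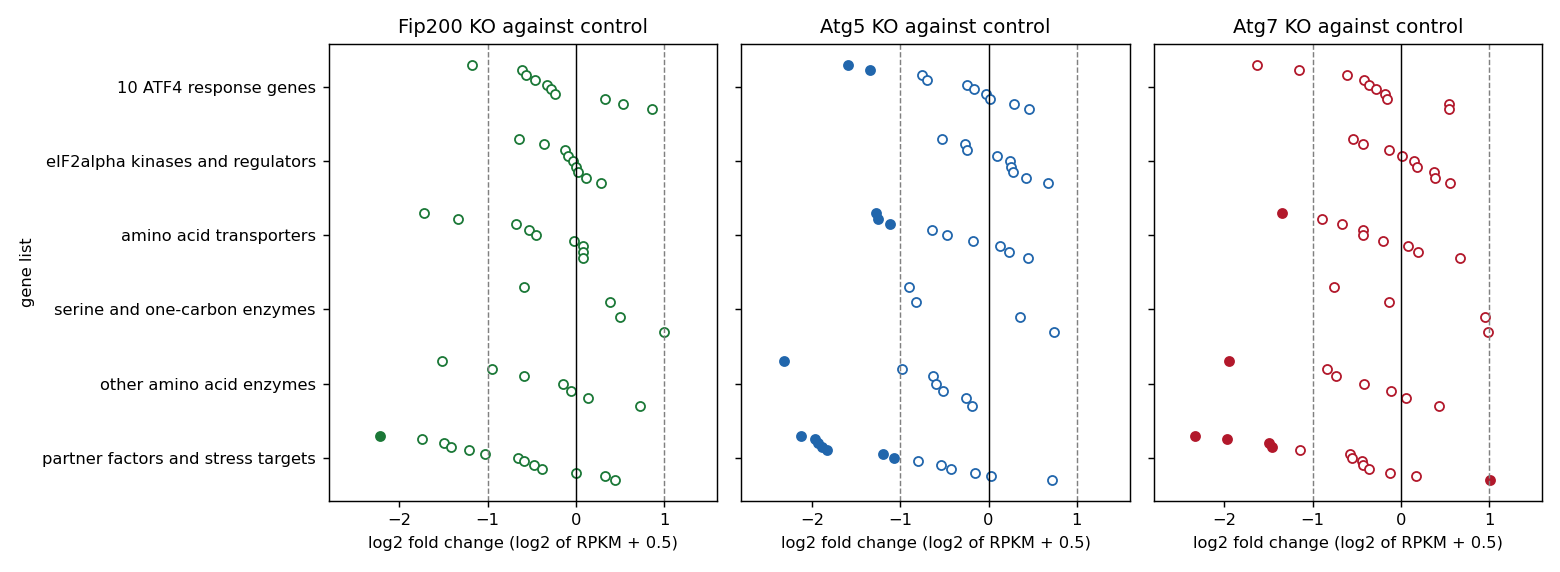
Log2 fold change on the scale of log2(RPKM + 0.5) of the 10 genes and of the 42 tested pathway genes, 1 row of points for each list and 1 panel for each KO against control (3 against 3 libraries); filled points are called and dashed lines mark a change of 1 in size. Filled points lie to the left of -1 apart from Atf5 in Atg7 KO cells, at 1.00, and most belong to partner factors and stress targets.

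Paralogues that are not classical ATF4 targets were set beside the 10 genes. Trib2, a relative of Trib3, was called lower without Atg5 (-1.41, adjusted p = 0.015) or Atg7 (-1.60, adjusted p = 0.0206), with -1.52 in Fip200 KO cells (adjusted p = 0.186, or 0.0809 and called lower in the fit of all 12 libraries), and every KO library lay below every control. Shmt1, the cytosolic form of Shmt2, was called higher in Atg5 KO cells, with 4.62, 5.86 and 6.32 RPKM in control and 13.6, 13.3 and 12.4 RPKM in Atg5 KO cells (1.16, adjusted p = 0.00491). Its values were 0.71 in Fip200 KO and 0.81 in Atg7 KO cells (adjusted p = 0.380 and 0.0559). Sesn1 was called lower in Atg7 KO cells (-1.06, adjusted p = 0.0516), a call lost without control replicate 2, control replicate 3 or Atg7 KO replicate 1 (adjusted p = 0.138, 0.135 and 0.153). With the prefix in the model all 4 of these calls were lost, with Trib2 at -1.21 (adjusted p = 0.243) in Atg5 KO and -0.75 (adjusted p = 0.816) in Atg7 KO cells, Shmt1 at 1.08 (adjusted p = 0.174) and Sesn1 at -2.33 (adjusted p = 0.235). With all libraries, Sesn3, Chac2, Trib1 and Mthfd2l were not called in any KO, with values between -1.16 for Trib1 in Fip200 KO cells and 0.31 for Mthfd2l in the same cells. Single libraries decided some of this, since Sesn3 was called lower in Atg7 KO cells without control replicate 2 (-1.07, adjusted p = 0.0810) or Atg7 KO replicate 2 (-1.17, adjusted p = 0.0148), and Trib1 in Fip200 KO cells without control replicate 1 (-1.70, adjusted p = 0.0901). With the prefix term Trib1 stood there at -0.0682.

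The KO groups were also compared with each other in a single limma fit of all 12 libraries. None of the 10 genes was called, and neither was any other of 12233 tested genes (background 0%) in the 3 comparisons. At an unadjusted p below 0.05 stood 0 of the 10 genes in each comparison, with 927, 916 and 562 of all genes for Atg5 KO against Fip200 KO, Atg7 KO against Fip200 KO and Atg7 KO against Atg5 KO. Over all genes the 0 rested on Fip200 KO replicate 3, since without it 165 genes were called higher and 135 lower in Atg5 KO, and 199 higher and 203 lower in Atg7 KO against Fip200 KO cells, still with 0 of the 10. The widest gap was that of Ddit3, at -1.02 (95% interval -2.32 to 0.29) in Atg5 KO against Fip200 KO and -1.06 (-2.37 to 0.24) in Atg7 KO against Fip200 KO cells, with adjusted p of 0.683 and 0.723. Between Atg7 KO and Atg5 KO cells the 10 genes ran from -0.38 for Sesn2 to 0.47 for Phgdh. Intervals of this width do not show that the KO groups are alike.

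Across the 12 libraries, the 10 genes were averaged after each was standardised, and all genes were ranked by Pearson's r with that mean. The nearest were Tars, the threonyl-tRNA synthetase (r = 0.951), Slc6a9, a glycine transporter of the lists (r = 0.922), Acp6 (r = 0.912), Nelfe (r = 0.911) and Hax1 (r = 0.911). Spearman's rho was 0.874, 0.951, 0.902, 0.895 and 0.923 in the same order. Without control replicate 2 and Atg7 KO replicate 2, the libraries farthest out, r was 0.939, 0.884, 0.833, 0.918 and 0.845. Each of the 10 genes was set against the mean of the other 9, which leaves the gene itself out. Mthfd2 (r = 0.838), Asns (r = 0.836) and Atf4 (r = 0.830) lay closest to it and Shmt2 farthest (r = 0.0073). These values are descriptions, since the libraries share groups, name prefixes and controls. Tars lay between 72.6 and 136 RPKM and Slc6a9 between 4.51 and 18.4 RPKM.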

How the data were processed

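RNA of 12 samples was sequenced as directional libraries, 3 for control 562 cells and 3 for each KO (Fip200, Atg5, Atg7). The study aligned adapter-trimmed reads with TopHat2 and counted them on known transcripts. Its methods name edgeR for the differential test, while build, annotation, versions and the treatment of reads shared by near-identical genes are not given in the sources used here. The authors deposited RPKM values per library in 3 tables, 1 for each KO with the same control libraries. The unit was read from the values, since for 14831 of 14851 genes they stand in ratios of whole reads within 0.001 read after 1 factor per library, up to a common factor per gene (20 genes had no reads). Group means, fold changes and p-values of the authors' own comparisons were not used.

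A gene entered a test when 3 or more of the libraries compared reached 0.5 RPKM, and was tested with limma 3.58.1 (R 4.3.3) on log2(RPKM + 0.5) with trended moderation, 6 libraries for each KO against control and 12 for KO against KO, with Benjamini-Hochberg adjustment over all tested genes. A pseudocount of 0.5 understates changes of low genes. A fit of reads was kept as an alternative (voom), since RPKM are not counts. Each library held at least 17264989 reads on listed genes. The self-test on simulated libraries with large planted changes found none in the wrong direction. This checks the sign only and says nothing on missed or false calls. Alternatives were the pseudocount, the filter, median-of-ratios scaling, a fit of all libraries, the library-name prefix or replicate number as a term, moderation without trend, and leaving out each library. The 10 genes, the pathway, paralogue and marker lists and the tests were chosen with earlier results of these data known. Named genes were the 10, the targeted genes, per KO the 3 highest and 3 lowest pathway genes and those called in all 3 KO groups, the paralogues, and the 5 genes most like the mean of the 10. Slc7a5, Slc7a3, Psph, Eif2ak4, Thy1 and other markers were named after their values were seen. Promoter sequences and positions came from RefSeq (GRCm38.p6), for 10 of 10 genes and 36 of 44 pathway genes. Scripts used Python 3.11.15, pandas 2.3.3 and matplotlib 3.10.9.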

Additional observations from a re-analysis of the deposited data

How the results depend on the processing

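With 3 libraries per group, single libraries moved many values. None of the 10 genes was called higher in any KO under any of the alternatives tried. In Atg5 KO cells 2 were called lower, against 1 with a pseudocount of 0.1 or 1, without a filter, with voom and with moderation without trend, and 0 with all 12 libraries in 1 fit and with the prefix term. Leaving out 1 library gave 0 to 2. In Atg7 KO cells the count of 0 became 1 in the 12-library fit (Ddit3) and ran from 0 to 1 without 1 library. The median of the 10 in Atg5 KO cells ran from -0.466 to 0.0438 when 1 library was left out. Of 42 pathway genes, 1 was called in Fip200 KO cells, against 3 in the 12-library fit and 0 without a filter, with the prefix term, with the replicate block and with voom (0 to 1 without 1 library). In Atg5 KO cells 11 became 7 in the 12-library fit and 0 with the prefix term (6 to 13 without 1 library), and in Atg7 KO cells 7 became 0 with the prefix term (4 to 9). Over all genes, 234 calls in Fip200 KO cells became 146 without a filter, 608 in the 12-library fit, 47 with the prefix term and 93 with the replicate block (0 to 598 without 1 library, the highest without Fip200 KO replicate 3 and 0 without control replicate 2 or 3). In Atg5 KO cells 1331 became 663 and in Atg7 KO cells 1191 became 38 with the prefix term, the latter running from 576 to 1514 without 1 library. The causes were not tested.

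Replicate numbers shared by the groups did not pair the libraries, since the correlation of same-numbered deviations from the group means ran from -0.22 to 0.08. With the replicate block, 0, 2 and 0 of the 10 genes were called in the order Fip200, Atg5, Atg7, as without it. The block gave 1322 and 1071 calls over all genes in Atg5 KO and Atg7 KO cells.

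Some values changed sign, among them Ddit3 in Fip200 KO cells (-0.57 as reported) and Asns in Atg7 KO cells (-0.42 as reported). With the prefix term, Fip200 KO cells had Ddit3 at 0.12, Sesn2 at 0.30, Eif2ak2 at -0.44 and Sesn1 at 0.24, Atg5 KO cells had Atf4 at 0.0775, Sesn2 at -0.29, Mthfd2 at 0.12, Bcat1 at 0.0887 and Mthfd2l at -0.0174, and Atg7 KO cells had Atf4 at 0.18, Asns at 0.57, Mthfd2 at 0.51 and Mthfd2l at -0.17. Sesn1 in Fip200 KO cells was 0.000982 with a pseudocount of 1, Chac2 there was -0.0028 with voom, and Sesn2 in Atg5 KO cells was -0.0387 with median-of-ratios scaling. Leaving out 1 library turned further values. In Fip200 KO cells Ddit3 ran from -1.04 to 0.25, Trib3 from -0.89 to 0.0166, Sesn2 from -0.65 to 0.15, Asns from -0.86 to 0.24, Mthfd2 from -0.21 to 0.70, Eif2ak2 from -0.22 to 0.40, Ero1l from -0.44 to 1.61, Mthfd1 from -0.14 to 0.93, Sesn1 from -0.15 to 0.27, Sesn3 from -0.78 to 0.47, Chac2 from -0.22 to 0.43 and Mthfd2l from -0.00137 to 0.67. In Atg5 KO cells Atf4 ran from -0.12 to 0.0842, Trib3 from -0.45 to 0.0263, Sesn2 from -0.30 to 0.39, Mthfd2 from -0.48 to 0.0613 and Bcat1 from -0.62 to 0.12. In Atg7 KO cells Atf4 ran from -0.315 to 0.0299, Sesn2 from -0.69 to 0.00154, Phgdh from -0.66 to 0.12, Mthfd2 from -0.50 to 0.19 and Mthfd2l from -0.0699 to 0.29. None of these was called in the reported fit. What depth limits was not tested.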
